A study of Homo sapiens with 6 samples.

Results

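Ribosome biogenesis is the making of ribosomes in the nucleolus. RNA polymerase I transcribes a long precursor rRNA, small nucleolar ribonucleoproteins (snoRNPs) guide its chemical modification and part of its cleavage, and processing and assembly factors fold and trim it into the small and large subunits. Many of the genes are known targets of the transcription factor MYC, and they run high in dividing leukemic cells. They were followed here as a list of 39 genes, taken by symbol from a table of 61806 Ensembl gene IDs. All 39 were found and all 39 passed the filter on low counts. The list held 8 snoRNP proteins, 6 genes of RNA polymerase I and its initiation factors, and 25 processing and assembly factors.

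U937 is an established human cell line with features of monocytes, and its labelled cell type is AML. RNA was sequenced from 3 libraries of cells given the vehicle DMSO and 3 given ethacrynic acid, a loop diuretic that reacts with thiols. The study asked how the compound alters transcripts of these cells in relation to myeloid differentiation. The titles give day 3, a treatment note gives 2 days of exposure, and the dose is not stated there. No label describes the replicates as separate cultures, so the p-values reflect only library-to-library spread, possibly technical.

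Library totals were 66907158 to 68128543 counts in DMSO and 57516146 to 66677543 counts in ethacrynic acid. The members together took 0.600% to 0.660% of a library. Levels are CPM, counts scaled to a common library size after TMM normalization, which centres the bulk of genes. Summed over 16 myeloid markers, levels were 3923 to 4510 CPM in DMSO and 4612 to 6065 CPM in ethacrynic acid libraries. Of the 16, 11 were higher and 5 lower in ethacrynic acid. None passed the edgeR test given below, where 0.265% of all genes did. All 5 globin genes tried (HBA1, HBA2, HBB, HBG1 and HBG2) were at 0 counts. The full list of 8 erythroid markers summed to 2.21 to 3.55 CPM in a library. A list of 8 lymphoid markers summed to at most 233 CPM, mostly NKG7. In a principal component analysis of all genes, the leading axis placed ethacrynic acid replicate 3 at 93.9 and the other libraries at -36.9 to -10.4. Summed levels of 8 epithelial markers were 476 CPM in that library and 46.0 to 65.6 CPM in the other 5, and the part of this in the results below was not tested. Values without each library are therefore given beside the main ones.

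Part of the list carries a sequence that MYC is known to bind, the E-box CACGTG, which reads the same on both strands. It was searched in RefSeq promoter windows of 300 bases, from 250 before to 50 after the annotated start (GRCh38.p14). Of 33 members matched to a window 11 held it, or 33.3%, against 7.26% of all 35116 windows. Those windows were not matched to the members in expression or base content, and the difference between the shares was not tested. The matches of 5 members whose values are given library by library below are shown with 10 bases of flank or as far as the window reaches, the E-box in capitals.

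FBL: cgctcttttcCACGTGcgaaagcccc
RRP9: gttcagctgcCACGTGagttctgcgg
BYSL: cttcagtcccCACGTGcgatccttcc
NOP2: gtccggattgCACGTGgagggccgc
MRTO4: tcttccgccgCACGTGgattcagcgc

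These lie at chr19:39846358-39846383 (minus strand), chr3:51941894-51941919 (minus), chr6:41921517-41921542 (plus), chr12:6568242-6568266 (minus) and chr1:19251809-19251834 (plus). The other matches were in UTP4, WDR43, NOP14, UTP20, PES1 and EBNA1BP2. The E-box began within 36 bases of the start in all but EBNA1BP2, where its offset from the start was -237 bases. The 11 members with the motif had a median log2 fold change (ethacrynic acid minus DMSO) of 0.16, with a range of 0.01 to 0.30. The 22 without it had a median of 0.11 and ranged from -0.12 to 0.36. A match describes letters in a window and does not show that the factor binds there.

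No member of the list passed the test for a change. In the edgeR quasi-likelihood test with Benjamini-Hochberg adjustment over 19611 genes, 0 of 39 members passed an adjusted p of 0.05, where 0.265% of all genes tested did (45 higher, or 0.229%, and 7 lower, or 0.0357%). The smallest adjusted p among the members was 0.38 (NIP7). At an unadjusted p under 0.05, 5 members were higher in ethacrynic acid and none lower, or 12.8% of the list, against 11.1% of all genes in either direction and 6.54% in the higher one. Among genes at least as abundant as the lowest member, the share in the higher direction was 8.62%. These 5 were NOP56, BYSL, NOP16, RRS1 and NIP7. DESeq2 called 3.05% of all genes and none of the members, and limma-voom called none of the members. With the replicate number as a block, edgeR called 1.81% of all genes and again none of the members.

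The differences were small and leaned one way. Positive log2 fold changes were found for 34 of 39 members, or 87.2%, against 49.9% of all genes and 52.9% of the 8012 genes whose mean level was at least that of the lowest member. The 5 negative members became 14 without DMSO replicate 3, 12 without ethacrynic acid replicate 1 and 10 without ethacrynic acid replicate 2. The median was 0.13 over the members and -0.00035 over all genes tested. It was 0.01 over those 8012 genes. The median stayed positive under every scaling tried, with a lowest value of 0.05 under total count scaling, where 16 members were negative. That scaling moved the median of all genes to -0.08 as well, and negative values under it below are to be read against that common shift. It was 0.07 without DMSO replicate 3 and 0.19 without ethacrynic acid replicate 3. In these bulk samples, a shift in the RNA of each cell and a shift in the mix of cells cannot be told apart.

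Given the spread between these libraries, the intervals limit how large a change could have been missed. The 95% intervals of all 39 members excluded a 1.5-fold fall, the lowest bound being that of DDX21 at a fold of 0.774. The intervals of 32 members also excluded a 1.5-fold rise. The exceptions were NHP2, NOP56, NOP16, RRP9, MRTO4, PES1 and BYSL, whose upper bounds ran from 1.51-fold to 1.62-fold. Of all genes tested, 31.6% had an interval within 0.774-fold to 1.62-fold, the widest bounds among the members, which all 39 meet by definition. All genes tested were not matched to the members in abundance, and their median SE was 0.20, against 0.12 for the members. The intervals are for single genes and are not adjusted for the number of members. They rest on the spread between these libraries, which is possibly technical, so they may not bound a change between separate cultures. The adjusted test can miss a change of 1.5-fold.

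**Figure D1:**
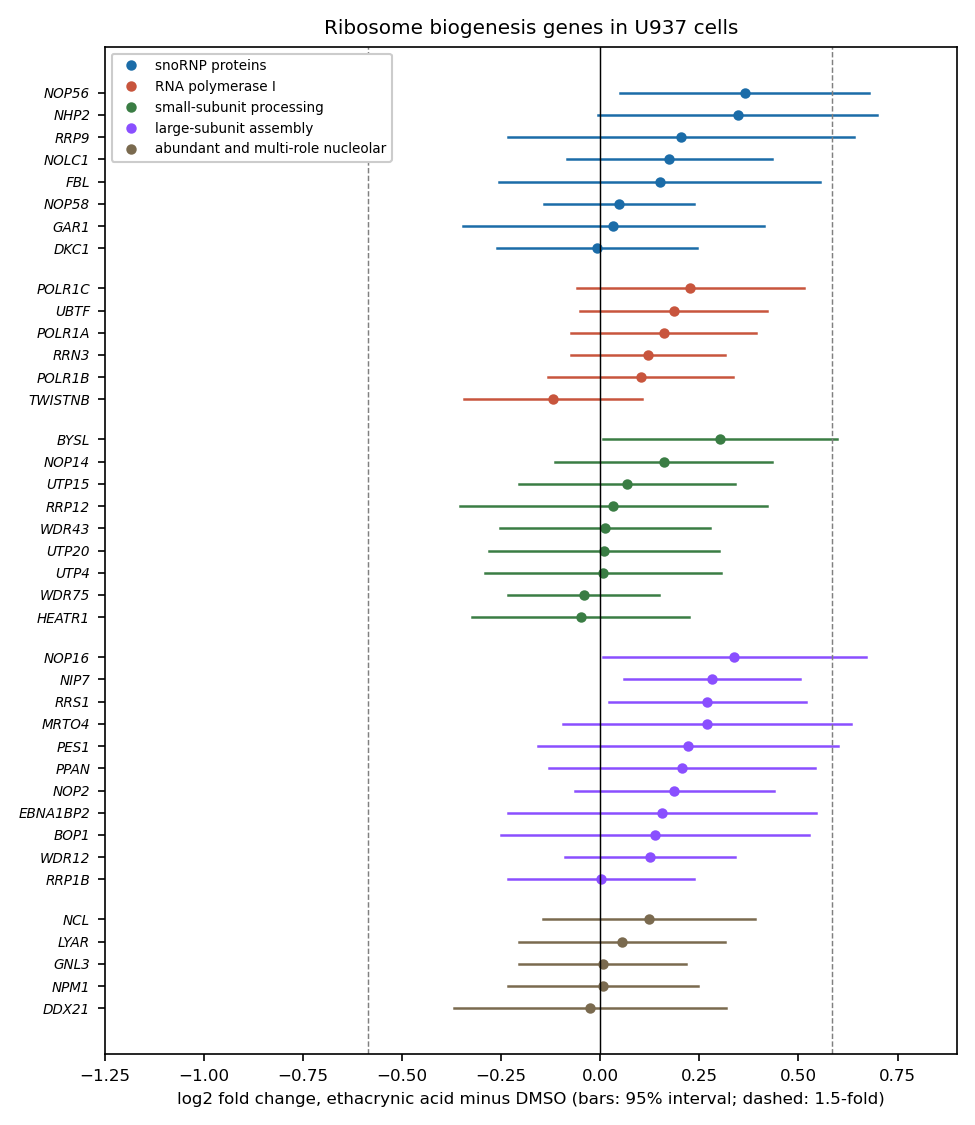
Log2 fold change of each of the 39 members (horizontal axis, ethacrynic acid minus DMSO, 3 libraries each) with its 95% interval, grouped and coloured by role. Dashed lines mark 1.5-fold in either direction: no interval reaches the lower one, and 7 cross the upper one.

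The snoRNP proteins fall into a box C/D set, which methylates rRNA, and a box H/ACA set, which converts uridine to pseudouridine. NOP56, a C/D core protein (ENSG00000101361, GRCh38 chromosome 20, 2652145 to 2658393), was at 301, 316 and 266 CPM in DMSO and at 442, 378 and 318 CPM in ethacrynic acid. The groups did not overlap, although the lowest ethacrynic acid library lay just above the highest DMSO library. Its means were 295 ± 26.0 and 379 ± 62.3 CPM (SD, n = 3 each), the largest log2 fold change of the list at 0.36 ± 0.14 SE (edgeR adjusted p = 0.41). NOP58, its partner, was at 98.4, 97.2 and 93.2 CPM against 101, 103 and 94.3 CPM, a log2 fold change of 0.05 ± 0.08 SE (edgeR adjusted p = 0.86). These libraries overlapped, and the interval of the NOP58 difference ran from -0.14 to 0.24.

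FBL, the methyltransferase fibrillarin, was at 341, 327 and 281 CPM in DMSO and 445, 333 and 274 CPM in ethacrynic acid. The ethacrynic acid group held both the highest and the lowest of the 6 values, and the log2 fold change was 0.15 ± 0.18 SE (edgeR adjusted p = 0.78). RRP9, a protein of the U3 snoRNP that acts in early rRNA cleavage, was at 61.3, 57.6 and 49.0 CPM against 83.4, 60.8 and 49.2 CPM. Replicate 1 alone was above the DMSO range, and the log2 fold change of 0.20 ± 0.19 SE (edgeR adjusted p = 0.71) was -0.02 without it. That of FBL was -0.05 without the same library.

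In the H/ACA set, DKC1, the pseudouridine synthase dyskerin, was at 284, 286 and 262 CPM in DMSO and 297, 293 and 238 CPM in ethacrynic acid. Its log2 fold change was -0.01 ± 0.11 SE (edgeR adjusted p = 0.99), with overlapping groups. NHP2 was at 87.4, 83.6 and 72.3 CPM against 126, 98.9 and 84.8 CPM, a log2 fold change of 0.35 ± 0.15 SE (edgeR adjusted p = 0.45). Its groups overlapped through ethacrynic acid replicate 3, and exons of RMND5B lie on the other strand, which leaves its counts uncertain. GAR1, which was the least abundant of the 8, was at 23.7, 25.2 and 22.6 CPM against 27.9, 26.8 and 18.4 CPM (0.03 ± 0.16 SE, edgeR adjusted p = 0.96). NOLC1, a chaperone of snoRNPs, was at 320, 375 and 307 CPM against 371, 412 and 348 CPM (0.17 ± 0.11 SE, edgeR adjusted p = 0.59).

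Over the 8 snoRNP members 0 passed the test, 7 were positive and the median log2 fold change was 0.16. The median was 0.09 without DMSO replicate 3, 0.01 without ethacrynic acid replicate 1 and 0.26 without ethacrynic acid replicate 3. Their summed level was 1517, 1567 and 1354 CPM in DMSO and 1893, 1705 and 1424 CPM in ethacrynic acid, so the groups overlapped. The table also lists 25 snoRNA genes inside 7 of the members as hosts, among them NOP56, GNL3 and NCL. None had more than 28 counts in a library.

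RNA polymerase I makes the precursor rRNA. POLR1A and POLR1B form its catalytic core. POLR1A (ENSG00000068654, chromosome 2, 86020216 to 86106155) was at 69.2, 81.2 and 70.9 CPM in DMSO and 78.0, 89.4 and 80.0 CPM in ethacrynic acid. The groups overlapped through DMSO replicate 2, and the log2 fold change was 0.16 ± 0.10 SE (edgeR adjusted p = 0.58). POLR1B was at 76.7, 89.6 and 79.5 CPM against 80.6, 94.4 and 88.8 CPM (0.10 ± 0.10 SE, edgeR adjusted p = 0.73). In both genes replicate 2 was the highest library of its group.

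POLR1C, a subunit shared with RNA polymerase III, was at 99.0, 91.9 and 85.7 CPM in DMSO and 125, 105 and 93.3 CPM in ethacrynic acid (log2 fold change 0.23 ± 0.12 SE, edgeR adjusted p = 0.52). Exons of XPO5 and YIPF3, among others, lie opposite it, so its counts are uncertain. TWISTNB, the subunit now named POLR1F, was at 45.7, 48.5 and 51.0 CPM against 41.3, 44.2 and 48.1 CPM. Its log2 fold change of -0.12 ± 0.10 SE was the lowest of the 39 (edgeR adjusted p = 0.67), was negative under all 15 alternatives, and came from overlapping groups.

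UBTF, the factor that coats the rRNA genes, was at 158, 154 and 134 CPM in DMSO and 181, 170 and 156 CPM in ethacrynic acid (log2 fold change 0.19 ± 0.10 SE, edgeR adjusted p = 0.53). Its groups overlapped through ethacrynic acid replicate 3. RRN3, which tethers the polymerase to the promoter, was at 42.0, 40.5 and 41.3 CPM against 43.4, 46.1 and 45.0 CPM. All of its ethacrynic acid libraries lay above all DMSO libraries, with a log2 fold change of 0.12 ± 0.08 SE (edgeR adjusted p = 0.62). Its 3 pseudogene rows took more counts than RRN3 itself, 4787 to 6048 in DMSO and 3603 to 4752 in ethacrynic acid. Summed with them, the family was at 118 ± 6.67 CPM and 113 ± 9.18 CPM (SD, n = 3 each). In that sum the groups overlapped, so the counts of RRN3 alone are uncertain.

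Of the 6 polymerase I members 0 passed the test, 5 were positive and the median log2 fold change was 0.14. It stayed between 0.10 and 0.19 when single libraries were left out and was 0.06 under total count scaling. The rRNA itself was barely counted: all 14 listed rows of 5.8S rRNA together held 120 to 172 counts in a library.

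Small-subunit factors act on the precursor in a large particle called the processome. HEATR1, one of the first to bind the precursor (ENSG00000119285, chromosome 1, 236549005 to 236604504), was at 322, 387 and 314 CPM in DMSO and 302, 365 and 322 CPM in ethacrynic acid. The groups overlapped almost fully, with a log2 fold change of -0.05 ± 0.12 SE (edgeR adjusted p = 0.90). UTP4, UTP15, WDR43 and WDR75, which bind the precursor in the same complex as HEATR1, had log2 fold changes from -0.04 to 0.07 (edgeR adjusted p of 0.86 to 0.99). BYSL, which acts on late small-subunit precursors, stood higher in this set. It was at 70.4, 68.3 and 60.0 CPM against 94.3, 81.3 and 69.5 CPM, overlapping through replicate 3 (0.30 ± 0.13 SE, edgeR adjusted p = 0.44). The remaining 3, NOP14, UTP20 and RRP12, had log2 fold changes of 0.16, 0.01 and 0.03. The median over the 9 small-subunit genes was 0.01, and it was negative under total count scaling (-0.06) and without DMSO replicate 1, DMSO replicate 3 or ethacrynic acid replicate 2.

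Large-subunit factors had a median of 0.21 over 11 genes, and all 11 were positive. NIP7, grouped here with these factors (ENSG00000132603, chromosome 16, 69337996 to 69343111), was at 24.9, 27.8 and 25.7 CPM in DMSO and 32.2, 32.1 and 31.0 CPM in ethacrynic acid. The groups did not overlap, with means of 26.1 ± 1.5 and 31.8 ± 0.655 CPM (SD, n = 3 each). Its log2 fold change of 0.28 ± 0.10 SE did not pass (edgeR adjusted p = 0.38, DESeq2 adjusted p = 0.092) and stayed between 0.25 and 0.33 without each library. Exons of COG8 lie on the other strand, so the counts of NIP7 are uncertain.

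RRS1, which helps bring 5S rRNA into the large subunit, was at 37.5, 39.8 and 33.5 CPM in DMSO and 48.0, 44.3 and 41.3 CPM in ethacrynic acid. These groups did not overlap either (log2 fold change 0.27 ± 0.11 SE, edgeR adjusted p = 0.43), and AC009879.2 overlaps its exons on the same strand. NOP16 was at 44.2, 43.9 and 37.0 CPM against 61.8, 52.7 and 43.5 CPM, overlapping through replicate 3 (0.34 ± 0.14 SE, edgeR adjusted p = 0.44). MRTO4, a placeholder for a stalk protein, was at 88.5, 93.8 and 77.1 CPM against 128, 98.8 and 85.2 CPM (0.27 ± 0.16 SE, edgeR adjusted p = 0.55). NOP2, an rRNA methyltransferase, was at 70.9, 70.2 and 61.2 CPM against 83.6, 78.6 and 68.2 CPM (0.19 ± 0.11 SE, edgeR adjusted p = 0.55). In MRTO4 and NOP2 as well, ethacrynic acid replicate 3 fell inside the DMSO range.

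PES1, BOP1 and WDR12 form 1 complex that is needed for large-subunit maturation. Their log2 fold changes were 0.22, 0.14 and 0.13, with edgeR adjusted p values of 0.64 to 0.79. PPAN, EBNA1BP2 and RRP1B were at 0.21, 0.15 and 0.0018. A readthrough gene, PPAN-P2RY11, shares exons with PPAN and was listed at 205, 2245 and 2799 counts in DMSO and 2919, 586 and 1848 counts in ethacrynic acid. PPAN itself had 3655 to 4837 counts, and the sum of both was 86.3 ± 13.3 CPM in DMSO and 99.9 ± 23.7 CPM in ethacrynic acid (SD, n = 3 each). The large-subunit median was 0.12 without DMSO replicate 3, 0.13 without ethacrynic acid replicate 1 and 0.30 without replicate 3.

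**Figure D2:**
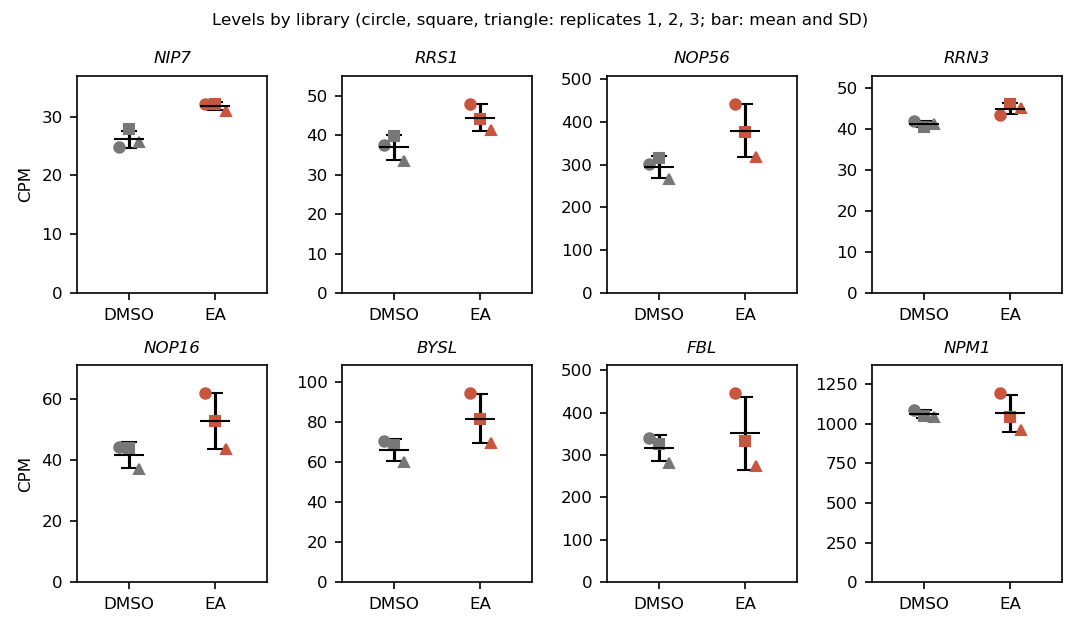
CPM of 8 members in each library (vertical axes start at 0; grey, DMSO; red, ethacrynic acid, EA), with the mean and SD of 3. In NIP7, RRS1, NOP56 and RRN3 the groups do not overlap, whereas in NOP16, BYSL, FBL and NPM1 they do.

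The last set holds abundant nucleolar proteins with several roles. NPM1, a nucleolar chaperone often mutated in AML, was the most abundant member at 1088, 1050 and 1042 CPM in DMSO and 1191, 1042 and 961 CPM in ethacrynic acid. The ethacrynic acid values lay on both sides of the DMSO range, and the log2 fold change was 0.01 ± 0.10 SE (edgeR adjusted p = 0.99, interval -0.23 to 0.25). Its 45 named pseudogenes added 1573 to 2010 counts a library, and with them the means were 1088 ± 26.5 and 1092 ± 119 CPM (SD, n = 3 each). NCL, nucleolin, was at 830, 915 and 743 CPM against 947, 956 and 806 CPM, with overlapping groups (0.12 ± 0.12 SE, edgeR adjusted p = 0.72). GNL3, nucleostemin, was at 192, 200 and 185 CPM against 209, 192 and 180 CPM (0.01 ± 0.09 SE, edgeR adjusted p = 0.99). The helicase DDX21 and LYAR had log2 fold changes of -0.03 and 0.06. The median of these 5 was 0.01 and turned to -0.08 under total count scaling and -0.01 without DMSO replicate 3.

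All 25 processing and assembly factors together had 0 members past the test, 22 positive values and a median of 0.12. It was 0.04 without DMSO replicate 3, 0.08 without ethacrynic acid replicate 2 and 0.18 without replicate 3. Across the whole list the groups did not overlap for 4 of 39 members, NOP56, RRN3, RRS1 and NIP7, all higher in ethacrynic acid. That is 10.3% of the list, against 8.64% of all genes tested in the higher direction, 8.99% in the lower and 17.6% in either. Among genes at least as abundant as the lowest member it was 11% in the higher direction, so the share of the list is near the background.

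Levels between members were compared per kilobase of merged exon length. In DMSO, NPM1 led at 277 CPM per kb, followed by FBL at 146, NCL at 120 and NOLC1 at 84.1 CPM per kb. UTP20 was the lowest at 2.46 CPM per kb, after UTP15 at 3.00 and POLR1A at 5.46 CPM per kb, and the median of the list was 23.8 CPM per kb. Under ethacrynic acid the ends of this order held the same genes, with NPM1 at 278 and UTP20 at 2.48 CPM per kb.

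Single libraries moved the list as a whole. The median deviation of the 39 members from their own means was -0.02, 0.05 and -0.17 (log2 CPM) in DMSO replicates 1, 2 and 3, and 0.16, 0.12 and -0.08 in ethacrynic acid replicates 1, 2 and 3. All genes tested had medians of at most 0.02 on this scale. DMSO replicate 3 held the lowest value of its group for 30 of the 39 members, where 34.8% of all genes had their lowest DMSO value there. Ethacrynic acid replicate 3 held the lowest of its group for 29 of the 39 members, against 35.7% of all genes. The highest of all 6 values was in ethacrynic acid replicate 1 for 23 of the 39 members and in replicate 2 for 10. The shares of all genes for these 2 counts are not reported here.

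**Figure D3:**
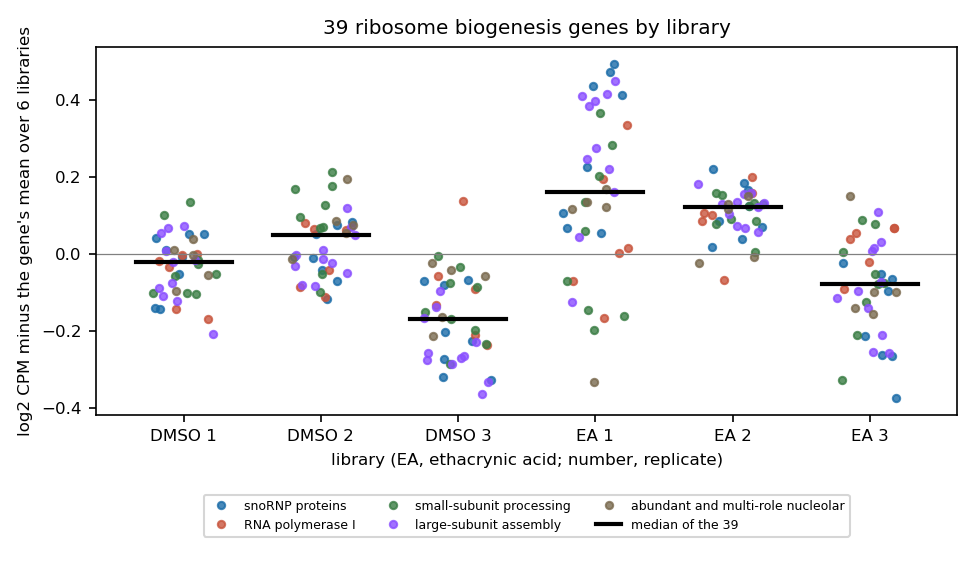
Log2 CPM of each member minus its mean over the 6 libraries (vertical axis), by library, coloured by role, with the median of the 39 as a bar. The medians run from -0.17 in DMSO replicate 3 to 0.16 in ethacrynic acid (EA) replicate 1, and the medians of EA replicate 3 and of DMSO replicates 1 and 2 lie between them.

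Exon length moved with this pattern. Across the 39 members, which share the same 6 libraries, the log2 fold change had a Pearson r of -0.35 and a Spearman rho of -0.34 with log2 exon length. Across 7995 genes of at least the same abundance r was -0.29. The deviation of ethacrynic acid replicate 1 from the mean had an r of -0.53 with length over the members and -0.41 over those genes. Shorter genes were higher there. In DMSO replicates 2 and 3 and ethacrynic acid replicate 3 the r over the members was 0.43, 0.32 and 0.37. Over those genes it was 0.26, 0.31 and 0.18. DMSO replicate 1 and ethacrynic acid replicate 2 had -0.20 and 0.16 over the members and -0.04 and -0.01 over those genes. Without ethacrynic acid replicate 1 the r of the log2 fold change over the members was 0.07, and 12 members were negative instead of 5. The 13 shortest members, 1510 to 3538 bases, had a median log2 fold change of 0.20, and the 13 longest, 5398 to 13519 bases, one of 0.10. The part of length in the values above was not tested.

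**Figure D4:**
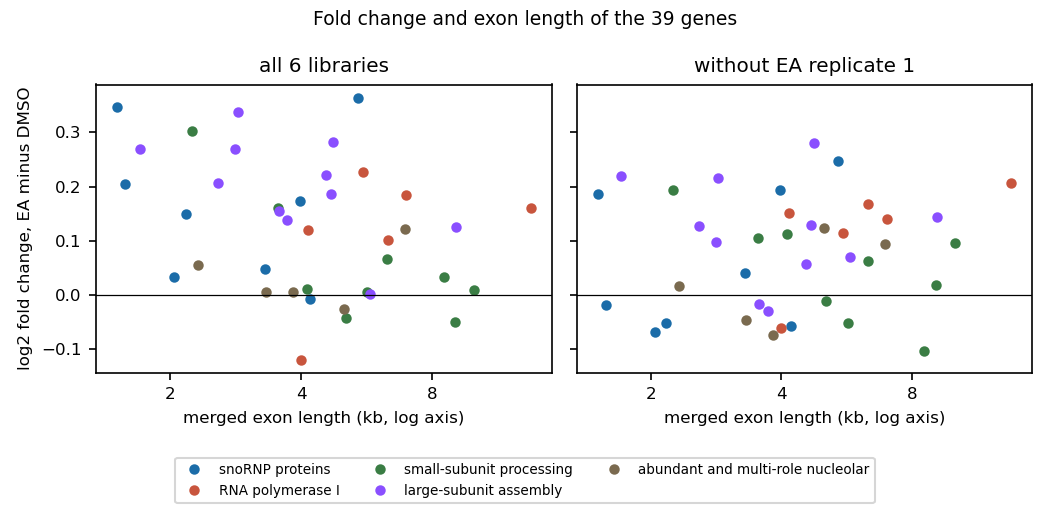
Log2 fold change of the 39 members (vertical axis, ethacrynic acid, EA, minus DMSO) against merged exon length in kb (log axis), coloured by role, with all 6 libraries on the left and without EA replicate 1 on the right. Pearson r is -0.35 on the left and 0.07 on the right.

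No other gene of the pathway passed the edgeR test either. A list of 133 further biogenesis factors of polymerase I, snoRNPs and both subunits had 132 tested members. Of these, 0 passed and 85 were positive. At an unadjusted p under 0.05, 10 were higher and none lower. Of all genes tested, 0.265% passed, 49.9% were positive and 6.54% were higher at that unadjusted p. The last share was 8.62% among genes at least as abundant as the lowest member, so 10 of 132 is near the background. Over the 132 the median log2 fold change was 0.07. By role it was -0.04 for 11 other polymerase I genes, 0.07 for 13 other snoRNP genes, 0.10 for 52 other small-subunit genes and 0.06 for 56 other large-subunit genes. Under total count scaling the snoRNP and large-subunit medians were negative, at -0.02 each, against the all-gene median of -0.08. Without ethacrynic acid replicate 1 the polymerase I median was 0.02 and the snoRNP median -0.04. Without DMSO replicate 3 the small-subunit median was 0.06 and the large-subunit median 0.0071.

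In these lists the genes with the smallest p were POLR1G (log2 fold change 0.34 ± 0.11 SE, edgeR adjusted p = 0.34), NOP10 of the H/ACA core (0.42 ± 0.15, 0.40) and RRP7A (0.44 ± 0.13, 0.30). SURF6, a nucleolar large-subunit factor, went from 50.9 ± 1.57 to 68.5 ± 8.05 CPM (SD, n = 3 each; 0.43 ± 0.11 SE, edgeR adjusted p = 0.21). DESeq2 called SURF6 (adjusted p = 0.013) and no other of the 132, and edgeR with the replicate block called TRMT112 alone among them (adjusted p = 0.0497). Of all genes tested, DESeq2 called 3.05% and the block fit 1.81%.

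A list of the RNA exosome, which trims rRNA ends, its cofactors and XRN2, an exonuclease outside that complex, had 0 of 15 genes called and a median of 0.02, with EXOSC4 at 0.51 ± 0.17 SE (edgeR adjusted p = 0.37). RNA polymerase III genes, which serve 5S rRNA, had 0 of 21 called and a median of 0.05. Under total count scaling both medians were negative, at -0.06 and -0.03, against -0.08 for all genes. The exosome median was also -0.02 without ethacrynic acid replicate 1. The polymerase III median was 0.02 without either DMSO replicate 3 or ethacrynic acid replicate 1. At an unadjusted p under 0.05 the exosome list had 2 of 15 genes and polymerase III 1 of 21, all higher. In that direction the share was 6.54% of all genes tested and 8.62% of genes at least as abundant as the lowest member.

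Cytosolic ribosomal proteins, the parts that these factors assemble, had 0 of 79 called in the edgeR test and 0 at an unadjusted p under 0.05. Of all genes tested, 0.265% were called and 11.1% had an unadjusted p under 0.05. Of the 79, 75 were positive, or 94.9%, against 49.9% of all genes and 52.9% of genes at least as abundant as the lowest member. Their median was 0.12, with a range of -0.04 to 0.29. RPL23 had the smallest p (0.26 ± 0.13 SE, edgeR adjusted p = 0.50). Their summed level was 71206, 66596 and 63448 CPM in DMSO and 86954, 69304 and 60007 CPM in ethacrynic acid. Ethacrynic acid replicates 1 and 3 were the highest and the lowest of the 6, and the median was -0.04 without replicate 1 and 0.25 without replicate 3.

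Host genes of snoRNAs had 0 of 20 called, with 4 higher and 1 lower at an unadjusted p under 0.05. Among all genes tested, 6.54% were higher at that p and 11.1% passed it in either direction. The median of these host genes was 0.09. Leaving out ethacrynic acid replicate 1 gave 0.02, and leaving out replicate 3 gave 0.18. DESeq2 called SNHG3 and SNHG4 as higher and SNHG32 as lower, where it called 3.05% of all genes. In the edgeR test SNHG4 was at 0.33 ± 0.08 SE (adjusted p = 0.23). Each of the lists above shares TMM scaling and the same 6 libraries with the members.

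**Figure D5:**
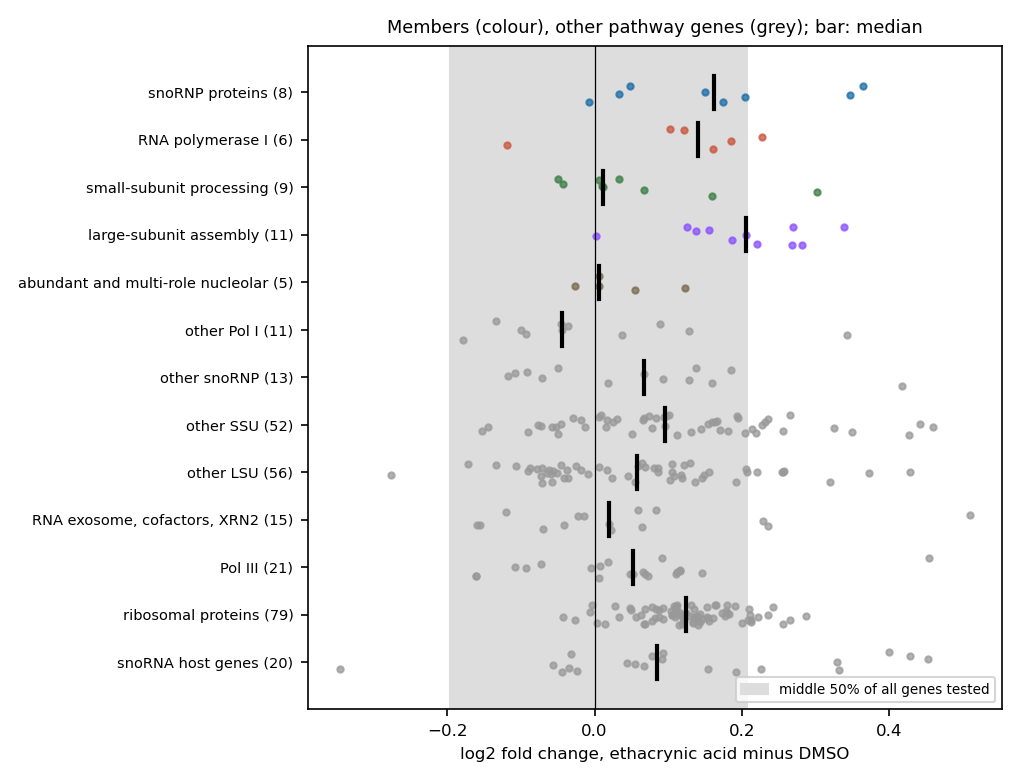
Log2 fold change of single genes (horizontal axis, ethacrynic acid minus DMSO) for the 5 roles of the members and for 8 other lists of the pathway, with the number of genes in brackets and the median as a bar. The grey band is the interquartile range of all genes tested (-0.20 to 0.21), and every median lies inside it. For genes at least as abundant as the lowest member that range is narrower, -0.11 to 0.15, and is not drawn. The medians of the snoRNP members (0.16) and of the large-subunit members (0.21) lie above its upper end.

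MYC, the transcription factor named above, was at 200, 256 and 266 CPM in DMSO and 308, 357 and 368 CPM in ethacrynic acid, with groups that did not overlap. Its log2 fold change of 0.52 ± 0.13 SE did not pass the edgeR test (adjusted p = 0.22), while DESeq2 (adjusted p = 0.0084) and edgeR with the replicate block (adjusted p = 0.025) called it.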

How the data were processed

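The authors deposited whole-number counts per Ensembl gene ID for 6 libraries, unscaled. Per the labels' protocols, RNA was taken with TRIzol and libraries were made with the SMARTER mRNA-seq kit. GRCh38 and the tools fastp, HISAT2, edgeR and StringTie 1.3.4d are listed in the submitters' processing notes, with no role or order. Neither annotation release nor strand setting is given in the sources used here. In DMSO replicate 1, 1306 genes had a count of 4, against 651 with 3 and 412 with 5, so what 1 count stands for is unclear, and all counts divided by 4 were an alternative.

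Each column's name gave its group and replicate. Of 61806 IDs, 61757 were given a symbol. Symbols that were not current were looked up among listed older symbols, then GENCODE 29 names, then RefSeq synonyms. DIEXF, of another list, was not matched. Coordinates and merged exon lengths are from GENCODE 29 (GRCh38), and promoter windows from RefSeq (GRCh38.p14). After filterByExpr (minimum count 10, total 15) and TMM scaling, edgeR 4.0.16 (R 4.3.3) fitted quasi-likelihood models with group as the only term, and F-tests were adjusted over all genes. The SE is the size of the log2 fold change over the root of F, and 95% intervals use the degrees of freedom of that test. The fit was tested on simulated data with 200 of 19610 genes changed. At an adjusted p under 0.05 it recovered 32.8% of 1.5-fold changes and 92.5% of 2-fold changes, with 16 false calls. Alternatives were DESeq2 1.42.0, limma 3.58.1 (voom), other scalings and filters, the replicate number as a block and each library left out.

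The members and lists were chosen with earlier results of these data known. Values by library are given for all snoRNP and polymerase I members and, among processing factors, for the 6 with the smallest p and the 4 most abundant. In each other list the gene with the smallest p is named, except for RNA polymerase III, where it is not reported here, and further genes called by DESeq2 or the block were named after their values were seen. Of the 39 members, 26 share exons with another annotated gene or have a named pseudogene, and their counts are uncertain to that extent.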

Additional observations from a re-analysis of the deposited data

How the results depend on the processing

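No member was called in the edgeR test or under any of the 15 alternatives, the smallest adjusted p being 0.087 (BYSL, edgeR with the replicate block). Same-numbered libraries had correlations of 0.16, 0.059 and 0.087 between their deviations from the group means, so the numbers were not taken to pair them, though each library correlated best with its own number. With the replicate block 247 genes were higher and 108 lower, among them 1 other small-subunit gene, TRMT112 (higher). For all genes, the numbers higher and lower were 14 and 0 with no filter, 82 and 14 with a stricter filter (5 CPM in 3 libraries) and 393 and 205 with DESeq2. They ran from 4 to 120 and from 0 to 28 when a library was left out, the highest of both without ethacrynic acid replicate 3. DESeq2 also called 1 other large-subunit gene as higher, and 2 snoRNA host genes as higher and 1 as lower. Under total count scaling, median log2 fold changes were 0.063 (polymerase I members), -0.12 (other polymerase I), -0.019 (other snoRNP), -0.061 (exosome list) and -0.033 (polymerase III), against -0.080 for all genes. With libraries left out, the median of other polymerase I ran from -0.077 to 0.019 and that of other snoRNP from -0.039 to 0.12.

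Of 585 log2 fold changes of members under alternatives, 62, in 18 members, changed sign, none of them called. They were UTP4 -0.00098, RRP1B -0.0063, NPM1 -0.00065 and GNL3 -0.00078 with no filter, and UTP4 -0.0011, RRP1B -0.0036, NPM1 -0.0022 and GNL3 -0.0012 with the stricter filter. Upper-quartile scaling gave UTP4 -0.0046, UTP20 -0.00036, RRP1B -0.0092, NPM1 -0.0056 and GNL3 -0.0050. Total count scaling gave NOP58 -0.033, GAR1 -0.055, UTP4 -0.077, UTP15 -0.013, WDR43 -0.062, UTP20 -0.064, RRP12 -0.055, RRP1B -0.074, NPM1 -0.079, GNL3 -0.077 and LYAR -0.027. Over the fits without 1 library, values ran from -0.051 to 0.29 for FBL, -0.017 to 0.36 for RRP9, -0.056 to 0.082 for DKC1, -0.069 to 0.19 for GAR1, -0.13 to 0.049 for HEATR1, -0.077 to 0.099 for UTP4, -0.054 to 0.11 for WDR43 and -0.038 to 0.099 for UTP20. They ran from -0.10 to 0.18 for RRP12, -0.030 to 0.27 for BOP1, -0.017 to 0.30 for EBNA1BP2, -0.062 to 0.070 for RRP1B, -0.075 to 0.068 for NPM1, -0.045 to 0.050 for GNL3, -0.11 to 0.12 for DDX21 and -0.014 to 0.14 for LYAR. The changes under total count scaling came with the shift of all genes by that scaling, and the cause of the others was not tested. Precision is limited by 3 libraries a group. The median coefficient of variation over the members (SD over mean of CPM) was 8.79% in DMSO and 10.95% in ethacrynic acid. The root of the common edgeR dispersion over all genes tested was 29.1%, a different measure that cannot be set against those values.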
